A study of Rattus norvegicus with 5 samples.

Results

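The genes described here encode the enzymes and regulators that make and break down polyamines. They are Odc1, Amd1, Srm and Sms on the synthesis side, Sat1 and Smox on the breakdown side, and the regulators Oaz1, Oaz2 and Azin1. Their probes were found by gene symbol in the array's annotation. Each of the 9 genes had 1 probe, so the set holds 9 of 22517 probes and 9 of the 13336 genes named in the annotation. Transcript levels had been measured on Illumina bead arrays in the parotid, the large salivary gland near the ear, of male Sprague-Dawley rats aged 2 to 3 months. The rats had been injected intraperitoneally with normal saline as the control (n = 2 rats) or with isoproterenol, an agonist of beta-adrenergic receptors, and then killed at 10, 30 or 60 min (n = 1 rat at each time). Each rat had 1 array. The labels give the isoproterenol dose as 20 mg per g of body weight, a unit that is in doubt because such a dose would be extremely large. The sources used here do not say how long after saline the control rats were killed, so an effect of the drug cannot be told apart from one of handling or from differences between rats.

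Polyamines (putrescine, spermidine and spermine) are small positively charged molecules that bind RNA and other polyanions and are needed for growth and for translation. Ornithine decarboxylase makes putrescine from ornithine, and spermidine synthase and spermine synthase then add aminopropyl groups that come from decarboxylated S-adenosylmethionine. Antizymes bind ornithine decarboxylase and send it to the proteasome, and the antizyme inhibitor, a relative of the decarboxylase without its activity, binds antizymes in its place. In rodent salivary glands, isoproterenol is known to raise ornithine decarboxylase activity ahead of gland growth.

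The upstream sequences of members are shown because cAMP, the second messenger of beta-adrenergic receptors, acts on many genes through the cAMP response element, TGACGTCA, or its core TGACG. RefSeq promoter sequences (build GRCr8) were at hand for 8 of the 9 genes, without Azin1. The lines give the 250 bases before the annotated start, 5′ to 3′ on the gene's strand, with each core, TGACG or its reverse complement CGTCA, in capitals. Sat1 and Oaz2 are shown as genes that rose at 60 min, Odc1 as the enzyme the field knows best, and Oaz1 as a relative of Oaz2 with values close to control.
Sat1, chrX:44007839-44008088, + strand: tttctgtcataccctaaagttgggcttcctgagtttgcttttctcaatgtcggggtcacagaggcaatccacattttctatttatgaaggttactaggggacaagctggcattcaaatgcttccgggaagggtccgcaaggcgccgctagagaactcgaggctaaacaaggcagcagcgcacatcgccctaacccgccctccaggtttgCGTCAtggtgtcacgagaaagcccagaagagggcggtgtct
Oaz2, chr8:75094567-75094816, + strand: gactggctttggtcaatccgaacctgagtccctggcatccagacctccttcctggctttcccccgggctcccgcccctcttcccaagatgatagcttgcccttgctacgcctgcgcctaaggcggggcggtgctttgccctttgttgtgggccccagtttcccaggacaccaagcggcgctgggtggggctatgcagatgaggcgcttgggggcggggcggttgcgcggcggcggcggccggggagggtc
Odc1, chr6:46058415-46058664, + strand: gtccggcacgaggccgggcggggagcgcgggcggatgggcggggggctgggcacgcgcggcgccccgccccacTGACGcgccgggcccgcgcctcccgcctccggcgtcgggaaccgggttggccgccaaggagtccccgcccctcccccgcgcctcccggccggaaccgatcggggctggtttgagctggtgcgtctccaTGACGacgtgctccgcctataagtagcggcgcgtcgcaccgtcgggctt
Oaz1, chr7:9536991-9537240, - strand: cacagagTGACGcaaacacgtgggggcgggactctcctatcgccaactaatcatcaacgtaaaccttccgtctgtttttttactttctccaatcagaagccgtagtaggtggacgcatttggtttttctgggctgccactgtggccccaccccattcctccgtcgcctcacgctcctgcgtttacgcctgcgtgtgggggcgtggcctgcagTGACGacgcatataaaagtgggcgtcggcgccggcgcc

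The Sat1 window held 1 core, CGTCA, starting at position -41, where -1 is the last base before the start. The Odc1 window held 2, both TGACG, at positions -177 and -49. Oaz1 also held 2, at -243 and -38, and the Oaz2 window held none. Of the 8 windows, 5 had a core on either strand, the others being Amd1 (1, at -63) and Sms (1, at -250). Of all 33469 promoters of the same length in the table, 18.2% held a core. The whole element TGACGTCA, which contains the core, was in none of the 8 windows and in 1.59% of all promoters. The E-box CACGTG, the letters bound by Myc and its partner Max, was in 2 windows, Srm and Oaz1, and in 5.59% of all promoters. These matches describe letters in the windows and were not tested for binding. Sequence outside the windows was not searched, so a gene without a match here may hold one elsewhere.

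Values below are log2 intensities after background correction and quantile normalization, unless they are named as deposited intensities. A probe was called above background when its detection p-value, the fraction of the array's negative control beads that were no dimmer, was under 0.01. All 9 probes were above background on all 5 arrays, with a detection p of 0 on each, so all 9 were among the 10793 probes tested. Differences are the value of the single isoproterenol rat minus the mean of the saline rats, tested with limma across the 10793 probes, two-sided, with Benjamini-Hochberg adjustment at 0.05. The lone rat of each time is assumed to vary as the saline rats do, with 1 residual degree of freedom, which the saline pair supplies, and 3.877 prior degrees of freedom. The 3 times share the saline rats, so their differences are not independent of each other.

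Sat1, Oaz2 and Azin1 rose at 60 min. These were 3 of the 9 genes, with none lower, beside 24.4% of all tested probes past the threshold at that time (13.0% higher and 11.4% lower). The other 6 genes did not pass at 60 min, among them Odc1. At 30 min none of the 9 passed, as did 0.0% of all tested probes, and at 10 min none of the 9 passed, beside 0.0278% of all. An unadjusted p under 0.05 was reached by 1 of the 9 at 10 min (Odc1), by 2 at 30 min (Sat1 and Oaz2) and by 4 at 60 min (these 2 with Azin1 and Sms), beside 6.07%, 19.8% and 42.0% of all tested probes. The 3 calls at 60 min were lost when dim probes were not filtered out, with adjusted p of 0.0686 for Sat1, 0.0805 for Oaz2 and 0.0979 for Azin1 over 22517 probes. No probe passed in that setting.

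**Figure D1:**
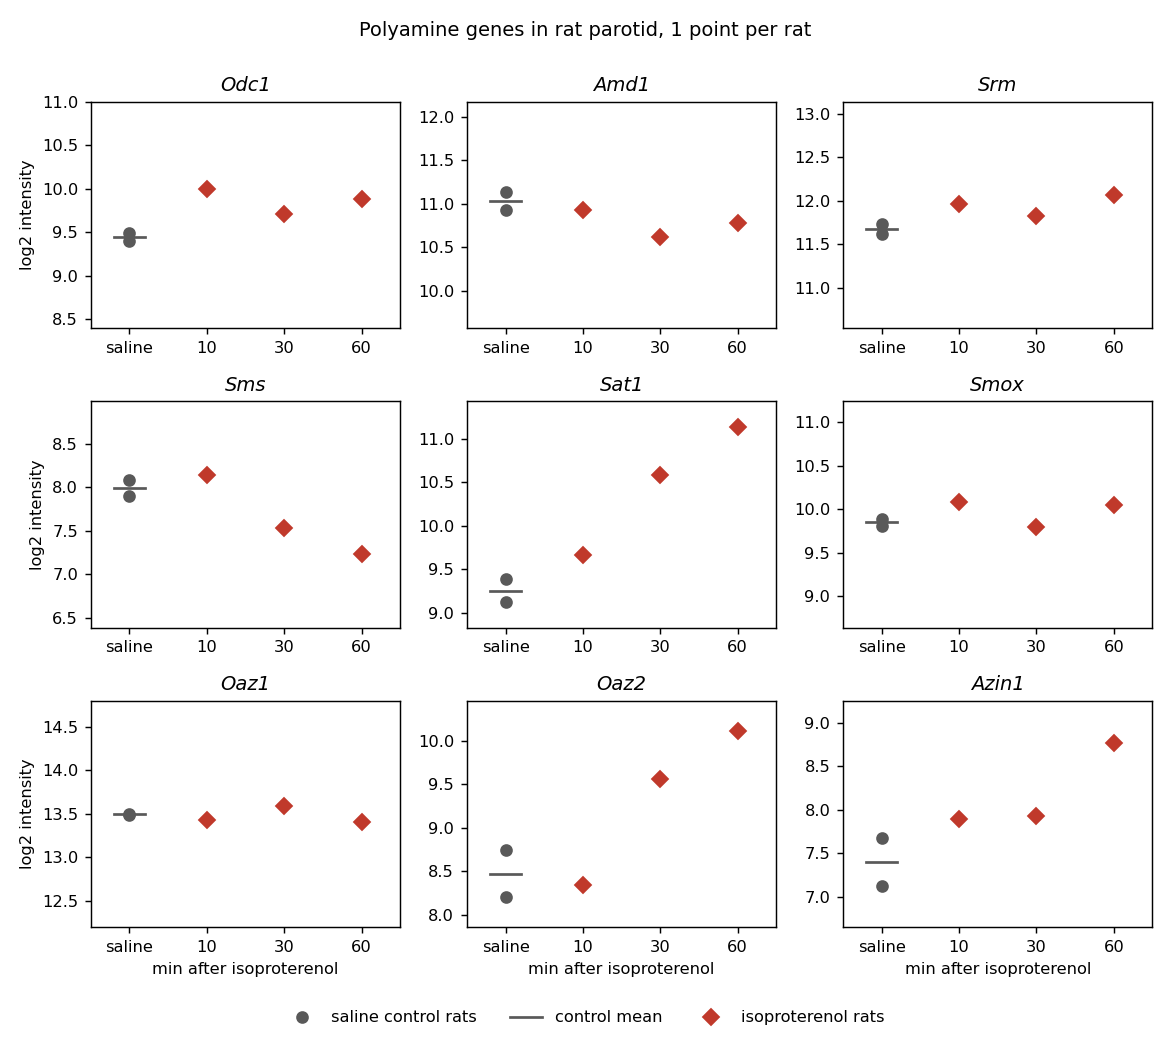
Log2 intensity (y axis, each panel spanning the same number of log2 units) of the 9 polyamine genes in each rat, with saline control rats as grey circles and their mean as a line, and the isoproterenol rats at 10, 30 and 60 min as red diamonds. Sat1, Oaz2 and Azin1 reached 11.13, 10.11 and 8.77 at 60 min, above both saline rats, while Oaz1 stayed between 13.40 and 13.59 in all 5 rats.

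Odc1 (probe ILMN_1369735), which encodes the rate-limiting enzyme of polyamine synthesis, had deposited intensities of 727 and 771 in the saline rats, and 1073, 887 and 997 at 10, 30 and 60 min. All 3 isoproterenol rats lay above both saline rats, and the value at 10 min was the highest of the 5. Odc1 differed from control by 0.55 ± 0.21 (SE) at 10 min, or 1.46-fold (95% interval 0.01 to 1.08, unadjusted p = 0.0459, limma adjusted p = 0.815). The differences were 0.26 (adjusted p = 0.509) at 30 min and 0.44 at 60 min, or 1.36-fold (95% interval -0.10 to 0.97, limma adjusted p = 0.178). None of these passed the threshold, and the interval at 60 min includes no change as well as a rise of nearly 1 log2 unit. The GRCr8 gene table lists 10 Odc1 pseudogenes, and the probe's letters were not used here, so a share of its signal from such copies was not tested.

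Amd1 (ILMN_1352980) encodes S-adenosylmethionine decarboxylase, which supplies the aminopropyl donor. Its log2 values were 11.13 and 10.93 in the saline rats and 10.92, 10.61 and 10.78 at 10, 30 and 60 min. The isoproterenol rats were all below both saline rats, at 10 min by less than 0.01 from the nearer of them. The difference was -0.41 ± 0.22 (SE) at 30 min (limma adjusted p = 0.349) and -0.25 ± 0.22 (SE) at 60 min (95% interval -0.82 to 0.32, limma adjusted p = 0.436), so neither passed. Amd1 has 3 pseudogenes in the table.

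Srm (ILMN_1358108), the spermidine synthase gene, had log2 values of 11.62 and 11.74 in the saline rats and 11.97, 11.83 and 12.06 at 10, 30 and 60 min. All 3 isoproterenol rats were above both saline rats. The difference at 60 min was 0.39 ± 0.21 (SE), or 1.31-fold (95% interval -0.15 to 0.93), and did not pass (limma adjusted p = 0.227).

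Sms (ILMN_1363944), the spermine synthase gene, had deposited intensities of 321 and 287 in the saline rats and 332, 234 and 199 at 10, 30 and 60 min. The 10 min rat lay just above the saline rats, and the rats of both later times lay below them. At 60 min Sms was 0.76 ± 0.22 (SE) below the control mean on the log2 scale (difference -0.76, 95% interval -1.32 to -0.19), or 1.69-fold lower, with a limma adjusted p of 0.0636 that missed the threshold. It passed without background correction (-0.60, adjusted p = 0.0428), with an offset of 50 (-0.64, adjusted p = 0.0438) and with the authors' processed values (-0.60, adjusted p = 0.0425). At 30 min its difference was -0.46 (adjusted p = 0.306). Duct markers, of which 6 were measured, had a median log2 level of 8.81 and 8.50 in the saline rats and of 8.46, 7.65 and 7.65 at 10, 30 and 60 min, and so were lower at the same later times as Sms. Their summed intensities were 3380, 2208 and 1938 at these times, against 4342 and 3560 in the saline rats, with 4 or 5 of the 6 above background on each array. Klk1 was not above background on any array. Their part in the Sms values was not tested. The table lists 2 Sms pseudogenes. Across the synthesis enzymes as a whole, none of the 4 genes passed at 10, 30 or 60 min, beside 0.0278%, 0.0% and 24.4% of all tested probes.

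Sat1 (ILMN_1368419) encodes spermidine/spermine N1-acetyltransferase, the rate-limiting enzyme of polyamine breakdown and export. Its deposited intensities were 718 and 607 in the saline rats and 863, 1581 and 2296 at 10, 30 and 60 min. The order from low to high was the saline rats, then 10, 30 and 60 min, and every isoproterenol rat lay above both saline rats. The 10 min rat was 0.41 above the control mean, which did not pass (limma adjusted p = 0.863). Sat1 was 1.33 ± 0.23 (SE) above control at 30 min, or 2.51-fold, which did not pass (unadjusted p = 0.00227, limma adjusted p = 0.208). It rose by 1.88 ± 0.23 (SE) at 60 min, or 3.68-fold (95% interval 1.29 to 2.47, limma adjusted p = 0.0281). Against either saline rat alone the 60 min difference was 1.75 and 2.01. The step between the rats of 60 and 30 min, 0.55 ± 0.26 (SE), did not pass (limma adjusted p = 0.416), and that between 30 and 10 min was not tested.

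Smox (ILMN_1365608), the spermine oxidase gene, which turns spermine back into spermidine, had log2 values of 9.89 and 9.80 in the saline rats and 10.09, 9.79 and 10.05 at 10, 30 and 60 min. The rats of 10 and 60 min lay above both saline rats and the rat of 30 min just below them. No difference passed, with 0.24 at 10 min (limma adjusted p = 0.896) and 0.20 at 60 min (95% interval -0.33 to 0.74, limma adjusted p = 0.497).

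Oaz2 (ILMN_1369340) encodes antizyme 2, which, like antizyme 1, binds ornithine decarboxylase and is made through a ribosomal frameshift that polyamines promote. Its deposited intensities were 345 and 479 in the saline rats and 374, 806 and 1155 at 10, 30 and 60 min. The 10 min rat lay between the saline rats, while those of 30 and 60 min lay above both. Oaz2 was 1.09 ± 0.29 (SE) above control at 30 min, or 2.13-fold, without passing (unadjusted p = 0.0145, limma adjusted p = 0.208). It rose by 1.64 ± 0.29 (SE) at 60 min, or 3.11-fold (95% interval 0.88 to 2.40, limma adjusted p = 0.0294). The saline rats were 0.54 apart in this probe, against a median gap of 0.19 over all tested probes, so the 60 min difference was 1.37 against saline rat 2 and 1.91 against saline rat 1.

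Oaz1 (ILMN_1349040), the antizyme 1 gene, had log2 values of 13.49 and 13.50 in the saline rats and 13.43, 13.59 and 13.40 at 10, 30 and 60 min. These values spanned less than 0.2 log2 units over the 5 rats. The 60 min difference was -0.09 ± 0.20 (SE) (95% interval -0.62 to 0.44, limma adjusted p = 0.770), on a scale that ended at 15.32. The table lists 2 Oaz1 pseudogenes.

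Azin1 (ILMN_1364984), the antizyme inhibitor gene, had deposited intensities of 254 and 189 in the saline rats and 287, 292 and 486 at 10, 30 and 60 min. All 3 isoproterenol rats lay above both saline rats, those of 10 and 30 min close to each other and that of 60 min apart from them. Azin1 rose by 1.37 ± 0.30 (SE) at 60 min, or 2.59-fold (95% interval 0.61 to 2.14, limma adjusted p = 0.0353). The differences of 0.49 at 10 min (adjusted p = 0.863) and 0.52 at 30 min (adjusted p = 0.378) did not pass. The saline rats were 0.55 apart, and the 60 min difference was 1.65 against saline rat 2 and 1.10 against saline rat 1. The step of 0.85 ± 0.34 (SE) between 60 and 30 min did not pass (limma adjusted p = 0.375), nor did that of any of the other 8 genes, beside 0.0% of all tested probes.

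**Figure D2:**
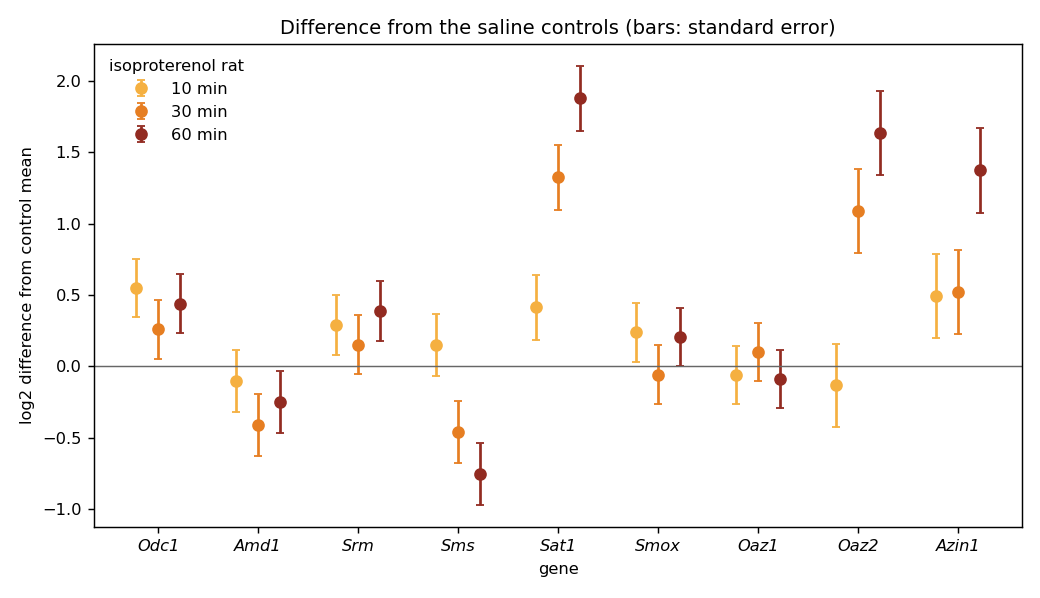
Log2 difference (y axis) of the isoproterenol rat at 10, 30 and 60 min from the mean of the saline rats for each gene (x axis), with bars for the standard error of the limma fit. At 60 min Sat1, Oaz2 and Azin1 stood at 1.88, 1.64 and 1.37, Sms at -0.76, and the other 5 genes between -0.25 and 0.44.

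The median difference of the 9 genes was 0.24, 0.15 and 0.39 at 10, 30 and 60 min, beside 0.03, -0.03 and -0.08 over all 10793 probes. At 10 min 6 of the 9 lay above both saline rats, beside 37.9% of all tested probes, and 2 below both, beside 30.7%. At 30 min 6 lay above and 3 below, beside 38.8% and 44.1%. At 60 min 6 of the 9 lay above both saline rats (Odc1, Srm, Sat1, Smox, Oaz2 and Azin1), beside 39.3% of all tested probes, and 3 lay below both (Amd1, Sms and Oaz1), beside 48.2%. Rats of all 3 times lay above both saline rats for 4 genes, Odc1, Srm, Sat1 and Azin1, beside 14.0% of all tested probes. They lay below both for 1 gene, Amd1, beside 16.9%. Values that climbed from 10 to 30 to 60 min, all above both saline rats, were found for 2 genes, Sat1 and Azin1, beside 7.95% of all tested probes. In size, the median of the 9 differences at 60 min without regard to sign was 0.44, below the 0.49 of all tested probes.

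The genes with the most similar values to Odc1, Azin1 and Sat1 over the 5 arrays were taken by the smallest root mean square distance between log2 values minus the control mean. For Odc1 they were Lrrc8d, a subunit gene of volume-regulated anion channels (distance 0.05), Crocc, which encodes the ciliary rootlet protein (0.05), and Rhobtb2 (0.06). Each of them was 0.51 to 0.63 above control at 10 min. For Azin1 they were the zinc transporter gene Slc30a7 (0.09), the ribosomal protein gene Rpl5 (0.12) and the tetraspanin gene Tspan7 (0.13). For Sat1 they were the connexin gene Gjb2 (0.11), Zfp36, which encodes a protein that speeds the decay of mRNAs (0.15), and the mitochondrial carrier gene Slc25a25 (0.16). Zfp36 was 1.51 above control at 30 min and 1.60 at 60 min, and Gjb2 1.16 and 1.98. These distances describe 5 rats and were not tested. The neighbours were picked by these same values, so their likeness at any time follows from the choice.

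**Figure D3:**
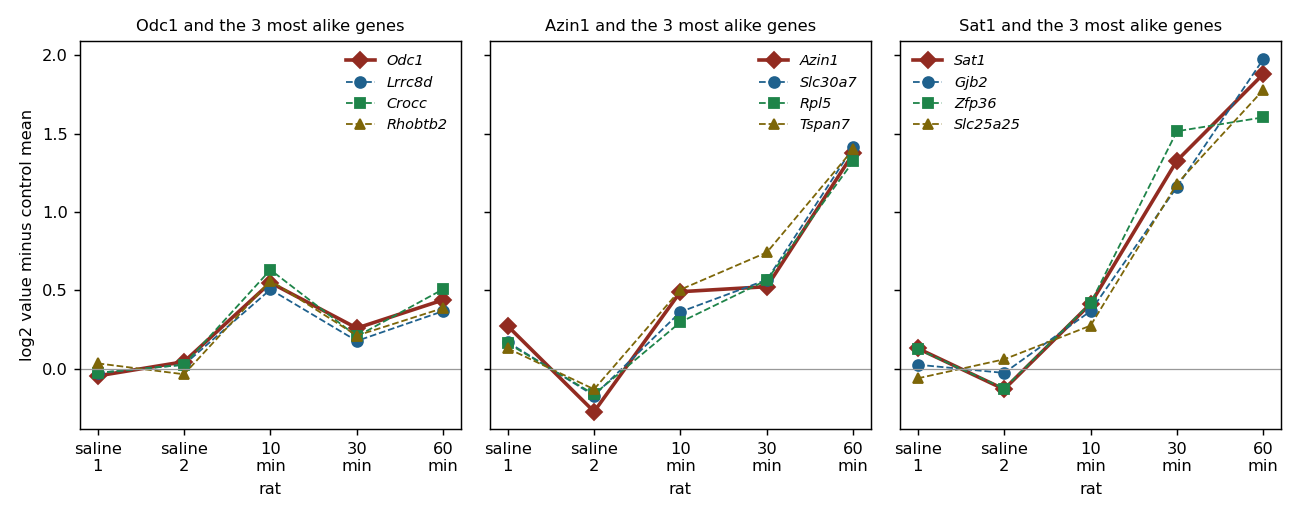
Log2 value minus the control mean (y axis) in each of the 5 rats (x axis) for Odc1, Azin1 and Sat1 (solid lines) and the 3 genes nearest to each (dashed lines); lines join different rats and only guide the eye. Odc1 and its neighbours were highest at 10 min, and the Azin1 and Sat1 groups were highest at 60 min. A shared highest time follows from picking the neighbours by these values.

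Other genes of the pathway were read from 5 lists with 66 names, of which 56 were in the annotation and 40 were tested. Of these 40, 5 (Mat2a, Ahcyl1, Aoc1, Mycn and Max) were above background at 60 min and on no other array, so they could enter the test through a high 60 min value alone. Among the 35 genes above background on at least 2 arrays, 8 rose at 60 min and 2 fell, which is 28.6% of them beside 25.5% of the 9821 probes tested under that filter. Their median difference was 0.34, beside -0.10 over those probes. With all 40 the counts were 9 and 2, or 27.5% beside 24.4% of all 10793 tested probes, and the added call was Max. When dim probes were kept in, none of these 40 passed.

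Among 9 tested genes of ornithine and arginine supply, 2 rose and 1 fell, or 33.3% beside 24.4% of all tested probes. Their median was 0.30, beside -0.08 over all tested probes. Ass1, the argininosuccinate synthase gene of arginine synthesis, stood at 11.08 at 60 min, against 8.73 and 9.48 in the saline rats. It rose 3.92-fold (difference 1.97 ± 0.36 SE, limma adjusted p = 0.0294). Aldh18a1, whose enzyme starts ornithine and proline synthesis from glutamate, rose 2.68-fold (limma adjusted p = 0.0287), with 9.57 at 60 min against a mean of 8.15 in the saline rats. The amino acid exchanger gene Slc7a6 stood at 5.91 at 60 min, against 7.44 and 6.92 in the saline rats, and fell 2.42-fold (limma adjusted p = 0.0388). The mitochondrial ornithine carrier gene Slc25a15 was 0.93 above control (adjusted p = 0.0538) and passed in 5 of the alternatives, and Asl, the argininosuccinate lyase gene, was at -0.57 (adjusted p = 0.147). Values of Arg1, which makes ornithine from arginine, and of Oat, which interconverts ornithine and pyrroline-5-carboxylate, were 0.21 and 0.56 above control without passing, though Oat passed in 3 alternatives.

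Methylthioadenosine salvage recycles the by-product of spermidine and spermine synthesis. Of 13 tested genes of this salvage and of the methionine cycle, 1 rose and none fell, or 7.69% beside 24.4% of all tested probes. Their median was 0.37, beside -0.08 over all tested probes. Over the 11 above background on at least 2 arrays it was 0.35, beside -0.10 under that filter. The gene that rose was Mtr, methionine synthase, with 7.81 at 60 min against 6.01 and 6.54 in the saline rats, or 2.90-fold (limma adjusted p = 0.0302). Mat2a, which makes S-adenosylmethionine outside the liver, and Ahcyl1 were above background at 60 min and on no other array. Allowing for dimness but not for the spread between rats, they were at least 1.11-fold and at least 1.29-fold higher at 60 min. Neither passed (limma adjusted p = 0.122 and 0.0779).

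Of 5 other polyamine enzyme genes tested, 1 rose and 1 fell, or 40.0% beside 24.4% of all tested probes. Satl1, named for its likeness to Sat1, stood at 6.26 at 60 min, against 5.09 and 5.33 in the saline rats, and rose 2.08-fold (limma adjusted p = 0.0346), a call lost with the authors' processed values (adjusted p = 0.0554). Aoc3, which encodes an amine oxidase of vessels and fat, stood at 6.18 at 60 min, against 7.58 and 7.61 in the saline rats, and fell 2.66-fold (limma adjusted p = 0.0281). Its values at 10 and 30 min were 6.25 and 6.94. Endothelial and fibroblast markers were lower on the same arrays. The median of 9 measured markers was 9.25 and 9.26 in the saline rats and 7.62, 7.50 and 7.83 at 10, 30 and 60 min. Their summed intensities were 5791 to 8635 in the isoproterenol rats and 21358 to 22283 in the saline rats, with 7 of 9 above background at 60 min and 8 on each other array. Most of them were fibroblast or matrix genes. Of the endothelial ones, Cdh5 was not above background on any array, and Vwf was so on all but that of 60 min. Adipocyte markers, of which 8 were measured, differed from control by a median of -0.69, 0.03 and -1.49 at 10, 30 and 60 min, where Aoc3 differed by -1.34, -0.66 and -1.41. Their summed intensities were 8263 and 7819 in the saline rats and 4231, 6746 and 2577 at these times. Above background were 7 of the 8 in each saline rat and at 30 min, and 5 at 10 and at 60 min. At 30 min the markers were split, with Lpl, Fabp4 and Cd36 below both saline rats and Cfd and Cidec above both. The part of these markers in the Aoc3 value was not tested, and fewer cells of a type cannot be told apart from less RNA per cell in whole glands. Paox, the peroxisomal polyamine oxidase gene, was at -0.46 (adjusted p = 0.162). Aoc1, the diamine oxidase gene, was above background at 60 min alone and did not pass (adjusted p = 0.107). Allowing for dimness but not for the spread between rats, it was at least 1.20-fold higher.

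Of 5 tested genes of the transport list, 2 rose and none fell, or 40.0% beside 24.4% of all tested probes. Atp13a2, which encodes a lysosomal polyamine exporter, rose 1.87-fold (limma adjusted p = 0.0393), with 7.47 at 60 min against 6.52 and 6.60 in the saline rats. Slc7a5, the other gene that rose (17.8-fold, limma adjusted p = 0.0281), carries large neutral amino acids rather than polyamines and was listed as the partner of Slc3a2. Slc7a5 stood at 10.25 at 60 min, and its saline rats differed widely (5.56 and 6.63), so the fold depends on which is taken. Slc3a2 was 0.68 above control (adjusted p = 0.0709) and passed in 4 alternatives. Slc22a3, an organic cation transporter gene, was at -0.23 without passing.

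In the list of the hypusine pathway and regulators, 2 of 6 tested genes above background on at least 2 arrays, Eif5a and Crem, rose and none fell. That is 33.3%, beside 25.5% of the probes tested under that filter. With Max and Mycn, above background at 60 min alone, the count was 3 of 8, or 37.5% beside 24.4% of all tested probes. Eif5a, whose protein carries hypusine, an amino acid made from spermidine, rose 2.20-fold (limma adjusted p = 0.0332), with 11.49 at 60 min against 10.20 and 10.50 in the saline rats. Dhps, which begins that modification, was at -0.62 (adjusted p = 0.0893) and passed as lower in 3 alternatives. Myc, a known activator of Odc1, was at 9.08 and 8.93 in the saline rats and at 9.37, 8.09 and 9.63 at 10, 30 and 60 min. Its 60 min difference of 0.63 did not pass (adjusted p = 0.0896) but did in 3 alternatives. Max, the partner of Myc, was above background at 60 min and on no other array and so entered the test through that array alone. Allowing for dimness but not for the spread between rats, its value there was at least 1.81-fold higher (limma adjusted p = 0.0314). With detection on at least 2 arrays it was not tested, and with the authors' processed values it did not pass (adjusted p = 0.0604). Crem, a cAMP-responsive transcription factor gene, stood 5.10 above control (limma adjusted p = 0.0287). Its saline rats differed widely (5.45 and 7.56), and it did not pass when the prior variance was robust (adjusted p = 0.121).

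**Figure D4:**
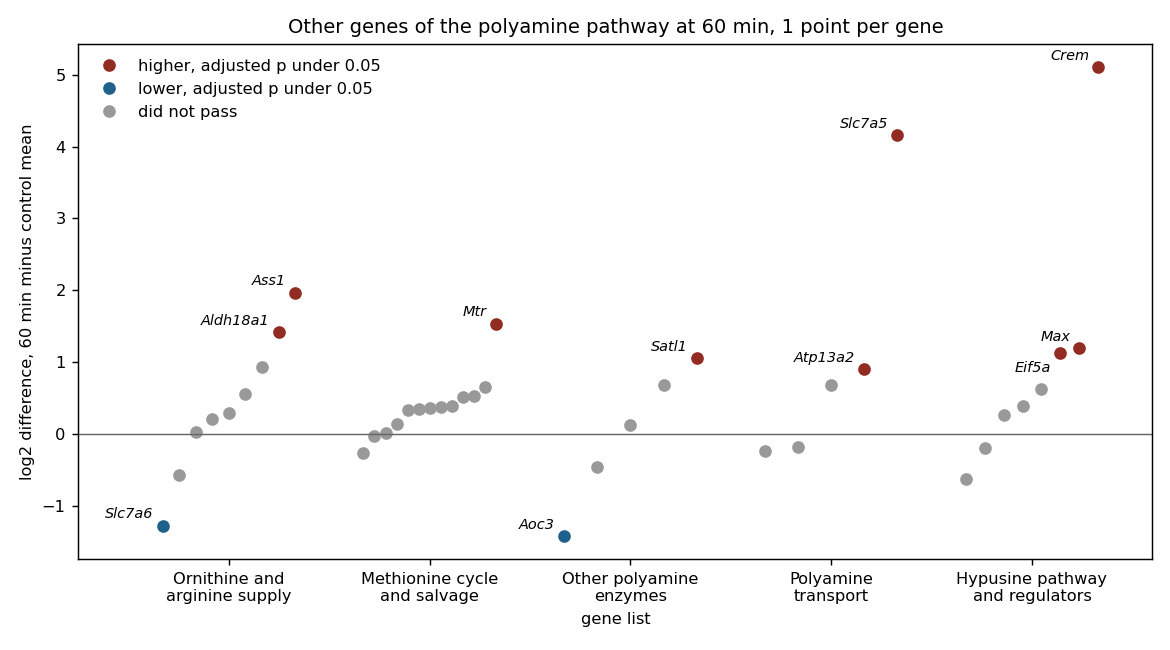
Log2 difference at 60 min from the mean of the saline rats (y axis) for 40 other genes of the pathway in 5 lists (x axis), 1 point per gene (5 of them, Max included, above background at 60 min alone), red where higher and blue where lower with a limma adjusted p under 0.05, grey where the gene did not pass. The genes past the threshold run from Aoc3 at -1.41 to Crem at 5.10.

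Parotid identity and the makeup of the glands were read from markers. All 9 measured acinar markers were above background on all 5 arrays, with medians of 14.30 to 14.99. Those medians lay near the top of the scale, 15.32, and were not used to compare acinar content between rats. Skeletal muscle markers split the rats in another way than the treatment, with a median over 11 measured markers of 11.82 and 6.45 in saline rats 1 and 2 and of 6.43, 11.78 and 8.72 at 10, 30 and 60 min. Endothelial and fibroblast markers differed from control by a median of -1.51, -1.08 and -1.73 at 10, 30 and 60 min, myeloid and lymphoid markers by -0.56, -0.69 and -0.47, and red blood cell markers by -1.11, -0.46 and -0.24. The last 2 medians include dim markers, with 3 to 5 of 7 and 4 to 6 of 6 above background on each array. Summed myeloid and lymphoid intensities were 2134 and 1714 in the saline rats and 1307, 1276 and 1248 at these times. Those of red blood cells were 38741 and 34890, then 9229, 24528 and 29115. The duct and adipocyte values stand beside Sms and Aoc3 above. The part of any of these lists in the values of the 9 genes was not tested. Between 9095 and 9459 of 22517 probes were above background on each array.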

How the data were processed

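Parotid RNA of 5 rats was measured, with 1 array per rat. Per the labels' protocols, total RNA was amplified and labelled with biotin. The authors deposited a linear intensity with its detection p-value for 22517 probes on every array. Although named as non-normalized, the sorted intensities of the 5 arrays differed by a median of 0.133% (highest minus lowest, relative to the mean), so they had been brought to the same quantiles. The lowest was 43.1, and the intensities were treated here as not background-subtracted, which that value alone cannot show. The other deposited table has log2 values processed by the authors; the transform and the scanner software are not stated in any source used here.

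The neqc function of limma 3.58.1 (R 4.3.3) was applied: a normexp background correction whose parameters come from the detection p-values, an offset of 16, quantile normalization and log2. Probes with a detection p-value under 0.01 on at least 1 array were tested (10793), by lmFit and eBayes with 1 mean per group on all 5 arrays, a prior SD of 0.186 and Benjamini-Hochberg adjustment over all tested probes. Intervals are 95%. The fit was also run on simulated data. There all arrays varied alike and few probes changed, so that run could not check the assumption about the lone rats. The number of arrays limits the precision, and slides and scan dates were not given. The labels number the saline rats, and p-values measure only the spread between them.

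Gene names came from the platform annotation, which gave 13787 probes 1 symbol, none several, and left 8730 without one. Of the other pathway lists, genes past the threshold at 60 min and up to 2 more with the largest difference are named, the brightest tested probe standing for a gene. Oat and Arg1 lie outside that rule and were chosen after their values were seen. For a probe not above background in a group, a lower bound of the fold is given, with the dim group set on each array to the higher of its own value and the lowest value among probes above background. That bound leaves out the spread between rats, so the true difference may be smaller. The genes and lists were chosen with earlier results of these data known. Alternatives were other background, offset, scaling, filter and prior settings, the authors' values, and each saline rat left out.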

Additional observations from a re-analysis of the deposited data

Results flagged for a closer look

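For 3 genes, rats of different times lay outside both saline rats on opposite sides. These contrasts have 1 rat at each time, and the differences of the 10 min rats from the later ones were not tested. Sms was 0.15 above the control mean at 10 min and at -0.46 and -0.76 at 30 and 60 min. Oaz1 was at -0.059, 0.097 and -0.091 at 10, 30 and 60 min, and its difference between 60 and 30 min did not pass (limma adjusted p = 0.730). Smox was at 0.24, -0.059 and 0.20 at these times, and its difference between 60 and 30 min did not pass either (limma adjusted p = 0.628).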

How the results depend on the processing

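Each of the 36 differences of the 9 genes (10, 30 and 60 min against control, and 60 against 30 min) was recomputed under 9 alternatives with a test. The filter and prior alternatives use the same log2 values, so no difference could change sign in them. At 10 min, at 30 min and between 60 and 30 min hardly any probe passed in any setting. Differences there had little room to cross the threshold, so the next counts are a weak check. Of the 324 values 0 changed sign and 318 kept their side of the threshold. The exceptions were 3 calls lost, those of Sat1, Oaz2 and Azin1 at 60 min without the filter on dim probes, and 3 gained, those of Sms at 60 min. Without that filter, 0 of the 9 genes and 0 of the 40 other pathway genes passed at 60 min, in place of 3 and 11. That setting tests 22517 probes in place of 10793 and also refits the prior variance on dim probes, and which of these moved the calls was not tested; 5628 probes had an unadjusted p under 0.05. In the other 8 alternatives 3 or 4 of the 9 genes passed at 60 min and 0 at 10 min, at 30 min and between 60 and 30 min. Between 10 and 16 of the other pathway genes passed at 60 min. In the same 8 alternatives 2503 to 2981 of all probes passed at 60 min, out of 9821 to 12250 tested. At 10 min 1 to 13 of all probes passed, at 30 min 0 to 8, and between 60 and 30 min 0 or 1. Leaving out a saline rat leaves no residual degrees of freedom and so gives values with no test. The 10 min difference of Oaz2 was then -0.40 without saline rat 1 and 0.14 without saline rat 2, and that of Azin1 0.76 and 0.22. No paired analysis was possible because each isoproterenol time has 1 rat and the labels pair none of them with a saline rat.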
